A study of Homo sapiens with 2 samples.

Results

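The genes described here encode ligands of the tumour necrosis factor (TNF) superfamily, the receptors that bind them, the TRAF adaptors that dock on those receptors, and genes named for being induced by TNF. They were chosen by symbol from the table of PC9 cells with and without TAZ4SA: every gene whose name begins with TNFRSF, TNFSF or TNFAIP followed by a digit, every TRAF gene with a number alone, and TNF, LTB, LTBR, TRADD, RIPK1 and TANK. The rule found 40 of the 16642 genes of the table. CD40 and EDA2R, which the rule also names, were not analysed here. The 40 comprised 9 ligands, 5 receptors with an intracellular death domain, 1 decoy receptor, 10 other receptors, 7 TRAF adaptors, 3 other adaptors or kinases and 5 TNFAIP genes.

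Ligands of this superfamily are mostly trimeric proteins made at the cell surface, some of which are shed. A bound receptor gathers adaptors on its intracellular tail. Receptors with a death domain recruit TRADD or FADD and can lead either to activation of the transcription factor NF-kB or to caspase activation. Most of the other receptors, decoy receptors apart, bind TRAF proteins directly. NF-kB in turn induces several of the ligands and receptors and also inhibitors of the pathway, among them the ubiquitin-editing enzyme A20, encoded by TNFAIP3. Many of these ligands and receptors are best known from lymphocytes and myeloid cells, and some, such as the lymphotoxin beta receptor and the receptors for TRAIL, are widely made by epithelial cells.

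PC9 is an established human lung adenocarcinoma line that depends on mutant EGFR. The data comprise 1 RNA sequencing library of control PC9 cells and 1 of PC9 cells expressing TAZ4SA, a form of the co-activator TAZ (gene WWTR1) mutated so that it escapes inhibition by the LATS kinases. The TAZ4SA cells carried lentiviral tetracycline-inducible vectors, and TAZ4SA was switched on with doxycycline at 50 ng/mL for 24 h. Whether the control line held any such vector is not stated in the sources used here. The sources also leave out whether doxycycline was given to the control, and whether either line is a clone or a pool. With 1 library per group there is no spread between cultures, no test of the conditions and no p-value, and each difference describes these 2 libraries.

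The libraries held 29668388 reads (TAZ4SA) and 47684754 reads (control) assigned to genes of the table. Values are normalized counts, that is, reads divided by 1 size factor per library. A fold is the ratio of normalized counts, and the range in brackets after it is its exact 95% interval, which covers counting error only. WWTR1 stood at 15628 normalized counts with TAZ4SA and 4933 in the control, 3.17-fold higher (3.07 to 3.27). All 8 epithelial markers examined were measured, each within 1.5-fold of the control level. Of 12 leukocyte markers, 4 were in the table, with summed normalized counts of 82.7 (TAZ4SA) and 54.0 (control). The other 8, among them PTPRC, CD3D, CD3E, CD14, MS4A1, NKG7 and HLA-DRA, were not analysed here. Of the endothelial markers, 4 of 8 were in the table, summing to 2963 and 3338, and of the fibroblast markers 2 of 9, summing to 554 and 538. Of these 2, COL6A3 was 1.96-fold lower (1.39 to 2.82) and COL1A1 1.19-fold higher (1.03 to 1.37).

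The upstream sequences of 5 members that were higher in the TAZ4SA library are shown because NF-kB, TEAD (the DNA-binding partner of TAZ) and AP-1 motifs lie in them. Of these members, LTB was higher on few reads only, 11 with TAZ4SA and 1 in the control. It is not among the genes called higher below. Each run is the 250 bases before the transcription start in RefSeq (build GRCh38.p14), 5′ to 3′ on the gene's strand, with motif matches in capitals.
TNFAIP3 (chr6:137867009-137867258, strand +): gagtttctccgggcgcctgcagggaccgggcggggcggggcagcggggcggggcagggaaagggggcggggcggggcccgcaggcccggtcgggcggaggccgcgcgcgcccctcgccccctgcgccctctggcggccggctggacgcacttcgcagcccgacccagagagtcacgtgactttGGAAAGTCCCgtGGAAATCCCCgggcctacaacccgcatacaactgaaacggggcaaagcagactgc
TNFRSF9 (chr1:7940840-7941089, strand -): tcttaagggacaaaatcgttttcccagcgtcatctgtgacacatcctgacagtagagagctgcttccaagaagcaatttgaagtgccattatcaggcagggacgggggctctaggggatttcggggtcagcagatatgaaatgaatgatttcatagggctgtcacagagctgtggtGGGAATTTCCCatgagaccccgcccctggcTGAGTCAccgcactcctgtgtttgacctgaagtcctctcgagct
LTB (chr6:31582425-31582674, strand -): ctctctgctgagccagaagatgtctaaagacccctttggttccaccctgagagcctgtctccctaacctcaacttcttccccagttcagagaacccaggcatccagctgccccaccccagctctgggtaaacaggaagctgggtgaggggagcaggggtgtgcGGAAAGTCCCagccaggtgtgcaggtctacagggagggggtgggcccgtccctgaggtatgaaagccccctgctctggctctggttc
TNFAIP1 (chr17:28335511-28335760, strand +): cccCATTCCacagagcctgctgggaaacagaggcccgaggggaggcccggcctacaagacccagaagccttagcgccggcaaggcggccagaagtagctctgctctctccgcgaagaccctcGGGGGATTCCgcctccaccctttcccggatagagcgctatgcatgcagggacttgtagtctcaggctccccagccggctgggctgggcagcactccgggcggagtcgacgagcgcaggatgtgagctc
TNFSF15 (chr9:114792531-114792780, strand -): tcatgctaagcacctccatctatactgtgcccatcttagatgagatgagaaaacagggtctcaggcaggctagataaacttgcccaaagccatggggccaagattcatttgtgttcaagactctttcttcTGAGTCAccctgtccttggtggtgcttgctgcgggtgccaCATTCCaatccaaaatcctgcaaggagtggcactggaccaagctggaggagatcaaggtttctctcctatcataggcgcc

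The capitals in TNFAIP3 are 2 NF-kB motifs on the opposite strand, from base -67 to -58 and from -55 to -46 counted back from the start. TNFRSF9 holds 2 NF-kB matches on different strands that overlap each other, from -74 to -64 together, and an AP-1 motif from -44 to -38. LTB holds 1 NF-kB motif on the opposite strand from -87 to -78. TNFAIP1 has an NF-kB motif from -128 to -119 and a TEAD motif on the opposite strand from -247 to -242. TNFSF15 has an AP-1 motif from -120 to -114 and a TEAD motif on the opposite strand from -80 to -75, and no NF-kB match in this window.

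The search used a form of the NF-kB consensus, GGAATG for TEAD and TGACTCA or TGAGTCA for AP-1, on both strands. The NF-kB form allows several letters at some positions, and the NF-kB counts and shares depend on that choice. It accepts GGGGCTCCCC, for example, which is the match in TNFRSF14 and TNFSF14. RefSeq windows were found for 33 of the 40 genes, 47 windows in all, since some genes have several starts. An NF-kB match lay in 10 of the 47, against 5.21% of all 35116 RefSeq windows searched. That background was not limited to genes of the counts table or to measured genes. LTB and TNFSF14 each count for 2 of the 10, with nearly the same window. By gene, 8 of the 33 held an NF-kB match, against 6.28% of the 27305 genes with a window. For TEAD it was 7 genes, against 14.3%, and for AP-1 3 genes, against 5.19% (7 and 4 windows, against 11.9% and 4.2% of all windows). Among the genes with an NF-kB match, TNFAIP3, TNFRSF9 and TNFAIP1 were at least 1.5-fold higher in the TAZ4SA library. TNFRSF25 and TRAF1, also called higher, and TNF and TNFRSF19, higher on few reads, had no match of any of the 3 motifs in these windows. LTB was also higher, on few reads, TRAF3 and TNFRSF14 were within 1.5-fold, and TNFSF13 and TNFSF14 had log2 ratios of -0.63 and -0.57 on few reads. A match describes the letters only, and binding of a factor was not measured.

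**Figure D1:**
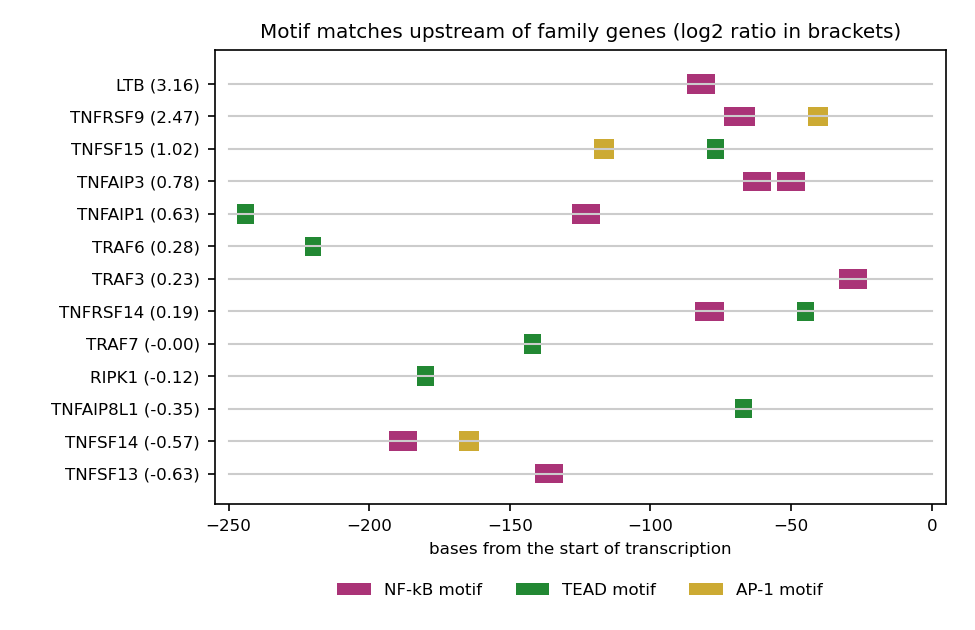
Positions of NF-kB, TEAD and AP-1 motif matches in the 250 bases before the transcription start (x axis, bases) of the 13 family genes with any match, ordered by their log2 ratio of TAZ4SA over control, which stands in brackets after each name. For genes with several starts, the window of lowest coordinate that has a match is drawn; NF-kB matches lie in genes at the top, in the middle and at the bottom of the order.

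Of the 40 genes, 31 averaged at least 20 normalized counts over the libraries and are called measured. A measured gene was called higher or lower where its log2 ratio, computed after adding 1 to each normalized count, reached 1.5-fold and its interval excluded a ratio of 1. Called higher in the TAZ4SA library were 6 of the 31: TNFRSF9, TNFSF15, TNFAIP3, TNFRSF25, TRAF1 and TNFAIP1. That is 19.4%, where 4.16% of all 14074 measured genes were called higher. Called lower were 2 of the 31, TNFRSF1B and TNFRSF11A, or 6.45%, where 4.44% of all measured genes were called lower. The other 23 measured members were not called. In bulk RNA, fewer cells making a transcript and less of it per cell cannot be told apart.

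The median log2 ratio of the measured members was 0.07, beside 0.0002 for all measured genes. Ratios above 0 were found for 17 members and below 0 for 14. At 2-fold, 2 members were called higher, TNFRSF9 and TNFSF15, and 0 lower, where 1.9% and 1.56% of all measured genes were. TNFRSF9 reached the minimum mean through the TAZ4SA library alone, since its control value was below 20.

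**Figure D2:**
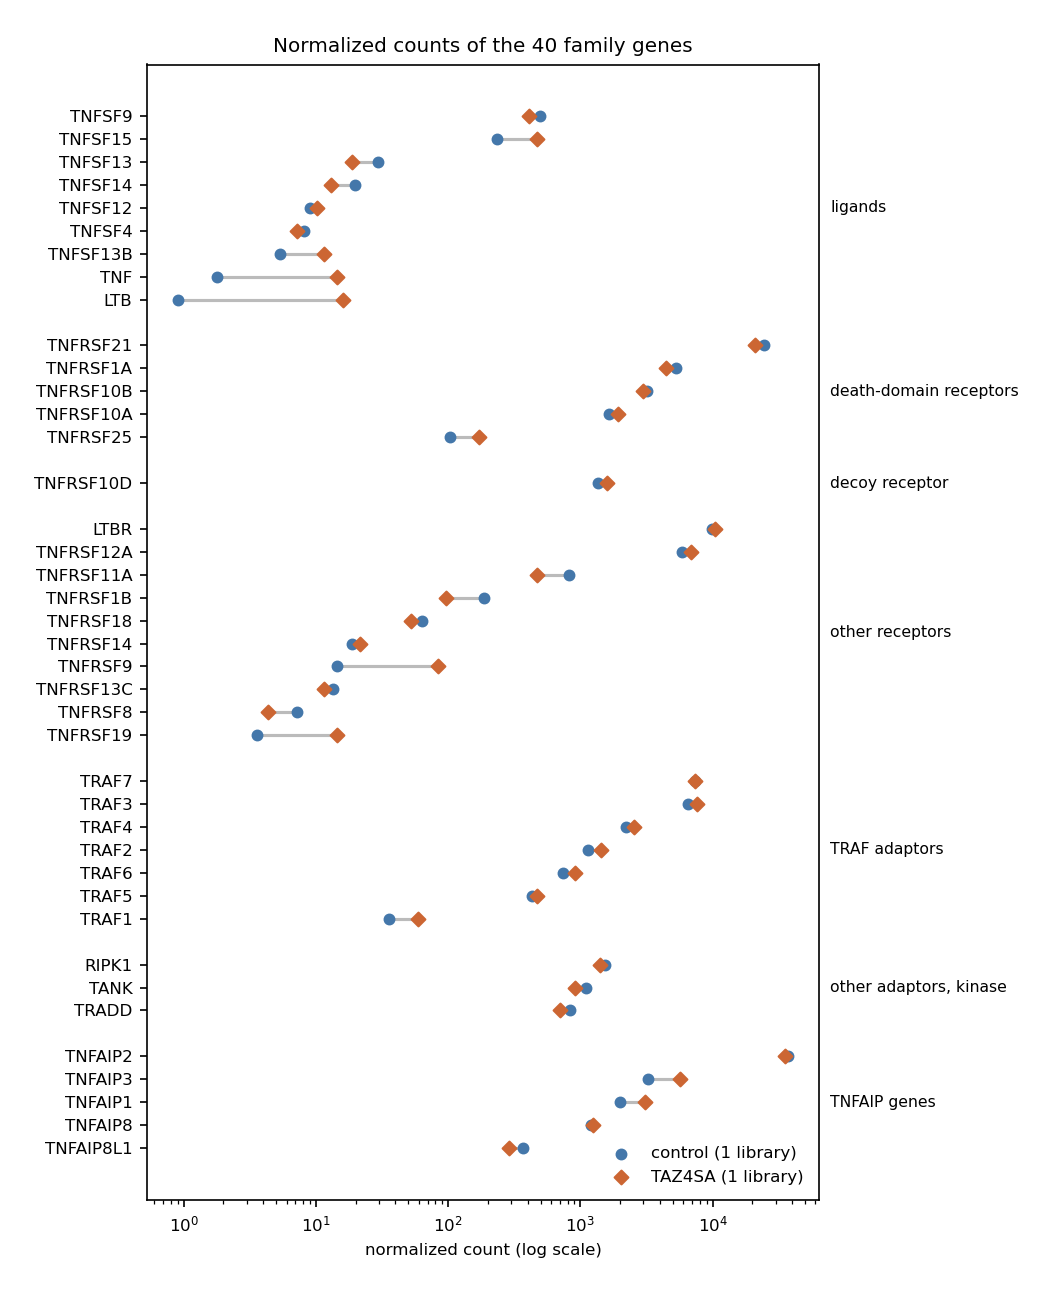
Normalized counts (x axis, log scale) of the 40 genes in the control library (circles) and the TAZ4SA library (diamonds), grouped by role and ordered by control level. The long grey links of LTB, TNF, TNFRSF19 and TNFRSF9 lie at the low end of the scale, and the symbols of most abundant genes nearly coincide.

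**Figure D3:**
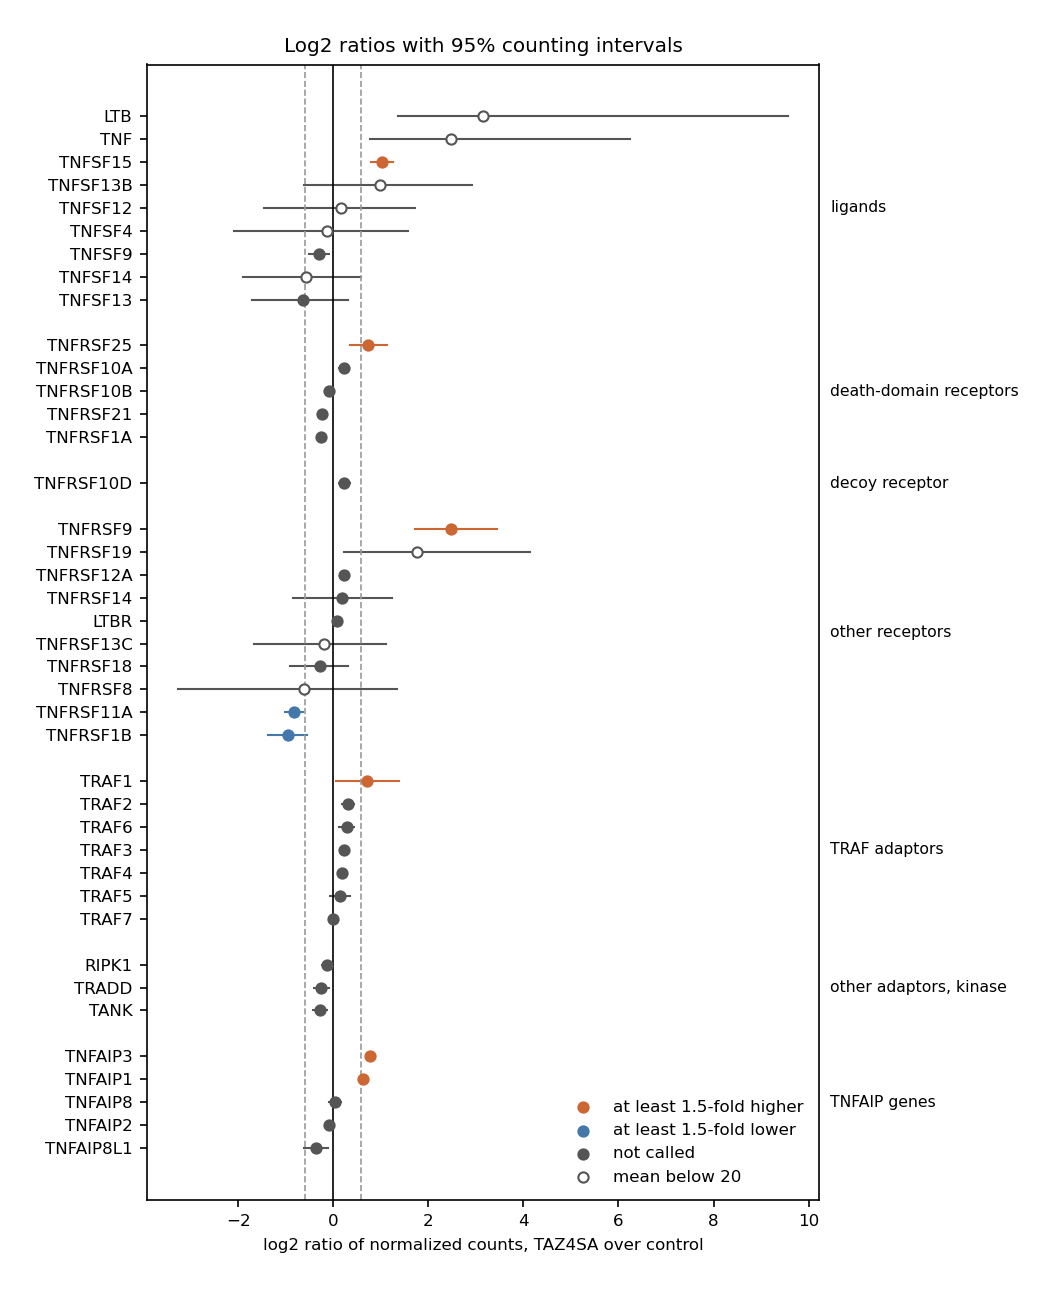
Log2 ratio of TAZ4SA over control for the 40 genes, from normalized counts plus 1 (points), with the 95% counting interval of the ratio without that addition (lines). Dashed lines mark 1.5-fold, open circles mark genes with a mean below 20, and colours mark the 6 genes called higher and the 2 called lower.

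Among the ligands, only 3 of 9 were measured, and 1 of them was called higher, beside 4.16% of all measured genes. TNFSF15, which encodes TL1A, a ligand that co-stimulates T cells and is made by endothelial and other cells, reached 474 normalized counts with TAZ4SA and 233 in the control. It was 2.04-fold higher (1.72 to 2.41) and ranked number 257 from the highest ratio of the 14074 measured genes. TNFSF9, the ligand of 4-1BB, stood at 406 with TAZ4SA and 497 in the control, 1.22-fold lower (1.06 to 1.42). TNFSF13, which encodes APRIL, a survival factor of plasma cells, stood at 18.9 and 29.7, and its interval spanned 1.

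TNF itself and LTB, which encodes lymphotoxin beta, were at the floor of the data in the control. TNF had 10 reads with TAZ4SA and 2 in the control, or 14.5 and 1.80 normalized counts, a ratio of 8.06 (1.72 to 75.7). LTB had 11 reads and 1 read, or 16.0 and 0.900 normalized counts, a ratio of 17.7 (2.58 to 763). Both were higher in the TAZ4SA library although it was sequenced less deeply, and both intervals are wide because of the few control reads. The log2 ratios after adding 1 were 2.47 for TNF and 3.16 for LTB, and the log2 fold changes in the authors' deposited table, without that addition, were 3.01 and 4.15.

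The remaining ligands were scarce in both libraries, with 5 to 22 reads each, and every interval spanned 1. TNFSF13B, which encodes the B cell survival factor BAFF, had 8 reads with TAZ4SA and 6 in the control. TNFSF14, which encodes LIGHT, had 9 and 22 reads, TNFSF12, which encodes TWEAK, 7 and 10, and TNFSF4, which encodes OX40 ligand, 5 and 9. No difference was detected in these 4 genes at this depth. The leukocyte marker ITGAM, an integrin of myeloid cells, was 2.46-fold higher (1.37 to 4.48) on 32 and 21 reads, a level near that of the scarce ligands. Its control value of 18.9 normalized counts was below 20. Among the other leukocyte markers, CD68 had 5 reads with TAZ4SA and 15 in the control. LYZ had 2 and 8 reads, and CSF1R 18 and 16. None of these other intervals excluded 1. Whether the leukocyte markers bear on the ratios of TNF and LTB was not tested.

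All 5 death-domain receptors were measured. Of these, 4 lay within 1.5-fold and 1 was called higher, beside 4.16% of all measured genes. TNFRSF25, which encodes DR3, the receptor of TL1A, had normalized counts of 173 with TAZ4SA and 103 in the control, 1.67-fold higher (1.28 to 2.17). Part of its exons, 8.94%, overlaps ESPN on the opposite strand, and 2.43% overlaps PLEKHG5 on the same strand. ESPN had 15 reads with TAZ4SA and 18 in the control, and PLEKHG5 was 1.23-fold higher (1.06 to 1.41).

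The abundant death receptors differed by small amounts. TNFRSF1A, the main receptor of soluble TNF, stood at 4427 with TAZ4SA and 5305 in the control, 1.20-fold lower (1.15 to 1.25). TNFRSF21, which encodes DR6, stood at 20883 and 24584, 1.18-fold lower (1.15 to 1.20). The receptors of TRAIL went different ways by little: TNFRSF10A, or DR4, was 1.16-fold higher (1.08 to 1.25) and TNFRSF10B, or DR5, 1.07-fold lower (1.01 to 1.13). TNFRSF10D, a decoy receptor of TRAIL that lacks a working death domain, stood at 1590 with TAZ4SA and 1351 in the control, 1.18-fold higher (1.09 to 1.27). These paralogs are similar in sequence, and the sources used here do not say how shared reads were handled.

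Of the 10 receptors without a death domain, 7 were measured, with 1 called higher and 2 lower, beside 4.16% and 4.44% of all measured genes. TNFRSF9 encodes 4-1BB (CD137), a co-stimulatory receptor known from activated T cells and induced by NF-kB. It had 58 reads with TAZ4SA and 16 in the control, or 84.1 and 14.4 normalized counts. The gene was 5.84-fold higher (3.31 to 10.9), number 39 from the highest ratio of all measured genes, and had the highest ratio of the measured members. Its level was low: per kilobase of exon it stood at 13.3 normalized counts with TAZ4SA, against 1655 for LTBR.

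The 2 members called lower were both receptors. TNFRSF1B, the second TNF receptor, which binds TRAF2 and responds best to membrane-bound TNF, had normalized counts of 97.2 with TAZ4SA and 188 in the control, 1.93-fold lower (1.46 to 2.59). TNFRSF11A encodes RANK, the receptor of the osteoclast differentiation factor RANKL. It stood at 467 and 823, 1.76-fold lower (1.55 to 2.01), and was number 366 from the lowest ratio of all measured genes, while TNFRSF1B was number 253.

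LTBR, the receptor of lymphotoxin beta and LIGHT, stood at 10393 normalized counts with TAZ4SA and 9872 in the control, 1.05-fold higher (1.02 to 1.08). TNFRSF12A encodes Fn14, the receptor of TWEAK, which is induced in injured epithelium; it stood at 6874 and 5860, 1.17-fold higher (1.13 to 1.22). Both abundant receptors therefore differed far less between the libraries than the scarce TNFRSF9. TNFRSF18 (GITR) and TNFRSF14 (HVEM), with 15 to 71 reads, had intervals spanning 1.

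The other 3 receptors were below the minimum mean. TNFRSF19, which encodes TROY and is known as a Wnt-induced gene of epithelial stem cells in the mouse, had 10 reads with TAZ4SA and 4 in the control, a ratio of 4.03 (1.16 to 17.6). TNFRSF13C, the BAFF receptor of B cells, had 8 and 15 reads, and TNFRSF8, which encodes CD30, 3 and 8; both intervals spanned 1.

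The 7 TRAF adaptors, which carry signals from receptors to kinases and, in most members, attach ubiquitin, were all measured, and 6 had log2 ratios above 0. Their median log2 ratio was 0.23, and 1 of 7 was called higher, beside 4.16% of all measured genes. That gene was TRAF1, a member without the RING domain of the others that is itself induced by NF-kB. It had 41 reads with TAZ4SA and 40 in the control, or 59.5 and 36.0 normalized counts, 1.65-fold higher with an interval that came close to 1 (1.04 to 2.62).

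TRAF2, which binds TNFRSF1B and joins the TNF receptor complex through TRADD, was 1.24-fold higher (1.14 to 1.35). TRAF6, which serves interleukin-1 and Toll-like receptors as well as RANK, was 1.22-fold higher (1.09 to 1.35). TRAF3, which holds back the alternative NF-kB pathway by keeping the kinase NIK (MAP3K14) degraded, stood at 7611 normalized counts with TAZ4SA and 6468 in the control, 1.18-fold higher (1.14 to 1.22). TRAF4, better known from epithelial cells than from immune signalling, was 1.14-fold higher (1.08 to 1.22). The intervals of TRAF5 (324 and 475 reads) and TRAF7 (5073 and 8197 reads) spanned 1, and the TRAF7 values, 7358 and 7375 normalized counts, nearly coincided.

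The 3 other adaptors or kinases went the opposite way by small amounts, and 0 of them was called. Over all measured genes, 4.16% were called higher and 4.44% lower. TRADD, the death-domain adaptor of TNFRSF1A and DR3, stood at 704 normalized counts with TAZ4SA and 838 in the control, 1.19-fold lower (1.07 to 1.33). TANK, a TRAF-binding scaffold of the kinase TBK1, was 1.21-fold lower (1.10 to 1.34). RIPK1, the kinase at the branch between NF-kB activation and cell death, stood at 1408 and 1531, 1.09-fold lower (1.004 to 1.18).

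Among the 5 TNFAIP genes, 2 were called higher and 0 lower, beside 4.16% and 4.44% of all measured genes. TNFAIP3, the gene of A20, which ends NF-kB signalling by editing ubiquitin chains, had normalized counts of 5622 with TAZ4SA and 3274 in the control. It was 1.72-fold higher (1.64 to 1.80), and with 3876 and 3639 reads it had the most reads of the called members. TNFAIP1, which encodes an adaptor of the CUL3 ubiquitin ligase that targets RhoA, stood at 3101 and 1999, 1.55-fold higher (1.46 to 1.65), close to the 1.5-fold threshold.

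The other TNFAIP genes did not follow. TNFAIP2, the most abundant gene of the family per kilobase of exon, stood at 35277 normalized counts with TAZ4SA and 37479 in the control, 1.06-fold lower (1.05 to 1.08). TNFAIP8, a regulator of phospholipid transfer and cell survival, stood at 1246 and 1211 with an interval spanning 1. Its relative TNFAIP8L1 was 1.28-fold lower (1.08 to 1.52).

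Ligands and receptors known to bind each other can be set side by side for 9 pairs in which both genes are in the table. TNFSF15 and TNFRSF25, a ligand and its receptor, were both called higher, with log2 ratios of 1.02 and 0.73. TNFSF9 and TNFRSF9 went opposite ways, the ligand at -0.29 and the receptor at 2.47. TNF was higher, at 2.47 on 10 and 2 reads, while its receptors TNFRSF1A and TNFRSF1B were lower, at -0.26 and -0.95. Signs were also opposite for TNFSF14, at -0.57, and its receptors LTBR and TNFRSF14, at 0.07 and 0.19. The same held for TNFSF13B, at 0.98, and TNFRSF13C, at -0.20. The intervals of TNFSF14 and TNFSF13B spanned 1, and so did those of the receptors TNFRSF14 and TNFRSF13C. For these genes the counts do not settle the sign.

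Levels per kilobase of exon show how unequal the pairs were. In the control, the normalized count per kilobase was 1572 for LTBR and 0.586 for LTB, and in the TAZ4SA library 1655 and 10.4. For the TWEAK receptor TNFRSF12A it was 3171 in the control and 3720 with TAZ4SA, against 4.79 and 5.40 for the ligand TNFSF12. The opposite order held for 4-1BB: its ligand TNFSF9 stood at 298 in the control and 244 with TAZ4SA, against 2.27 and 13.3 for the receptor. TNFSF15 and TNFRSF25 were of like level, at 29.5 and 24.2 in the control and 60.1 and 40.3 in the TAZ4SA library.

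**Figure D4:**
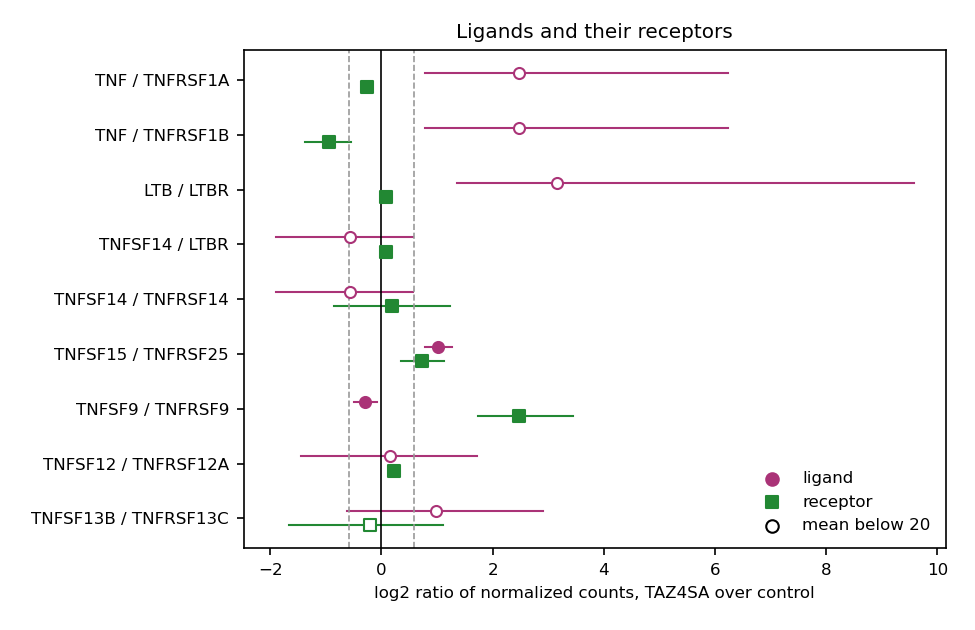
Log2 ratios of TAZ4SA over control for 9 ligand and receptor pairs (ligands as circles, receptors as squares, 95% counting intervals as lines, open symbols for a mean below 20, dashed lines at 1.5-fold). Both genes of the TNFSF15 and TNFRSF25 pair lie to the right of the 1.5-fold line. In the TNFSF9, TNF, TNFSF14 and TNFSF13B pairs ligand and receptor lie on opposite sides of 0. Of these ligands only TNFSF9 reached the minimum mean. The intervals of TNFSF14, TNFSF13B, TNFRSF14 and TNFRSF13C cross 0.

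Among the genes through which these receptors signal, the share called varied from list to list. Of 11 NF-kB subunits and inhibitors, 4 were called higher and 0 lower, and the median of their log2 ratios was 0.11, where 4.16% of all measured genes were called higher and 4.44% lower. NFKB2, the precursor of the alternative pathway's subunit, stood at 2247 normalized counts with TAZ4SA and 915 in the control, 2.46-fold higher (2.27 to 2.66). Its partner RELB was 3.45-fold higher, the inhibitor gene NFKBIE 1.82-fold (1.62 to 2.05) and NFKB1 1.63-fold (1.54 to 1.73).

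Of 12 kinases and kinase-binding proteins upstream of NF-kB, 1 was called higher and 0 lower, beside 4.16% and 4.44% of all measured genes. The called gene was MAP3K14, which encodes NIK, the kinase of the alternative pathway. It stood at 6388 normalized counts with TAZ4SA and 3286 in the control, 1.94-fold higher (1.86 to 2.03). The other 11 lay within 1.5-fold. TAB3 was 1.22-fold higher (1.18 to 1.26), and the intervals of IKBKE and MAP3K8 spanned 1.

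Of 13 measured genes of ubiquitin editing and its control, 2 were called higher and 0 lower, beside 4.16% and 4.44% of all measured genes. TNIP1, which encodes a partner of A20, stood at 10538 normalized counts with TAZ4SA and 5369 in the control, 1.96-fold higher (1.90 to 2.03). BIRC3, which encodes cIAP2, a ubiquitin ligase that binds TRAF2, was 2.89-fold higher, whereas its paralog BIRC2 was 1.35-fold higher (1.28 to 1.42). CYLD, a deubiquitinase that opposes NF-kB, was 1.45-fold higher (1.34 to 1.58).

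The death arm and the shedding machinery held 0 called genes, where 4.16% of all measured genes were called higher and 4.44% lower. In lists of 15 and 5 measured genes, 0 calls is near those shares. All 15 measured genes of death signalling lay within 1.5-fold, with a median log2 ratio of 0.01. CFLAR, which encodes the death-signalling inhibitor FLIP, was 1.19-fold higher (1.10 to 1.30), and APAF1, the gene of the apoptosome scaffold, was 1.19-fold lower (1.05 to 1.34). Of the 5 shedding genes, which cut TNF and other ligands from the cell surface or restrain that step, the inhibitor gene TIMP3 differed most, 1.16-fold higher (1.14 to 1.18). ADAM17, the TNF-converting enzyme gene, was 1.04-fold lower (1.003 to 1.07), and the intervals of RHBDF1 and RHBDF2 spanned 1.

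Among cytokine and adhesion genes that TNF induces, 5 of 12 were measured, with 3 called higher and 1 lower. Over all measured genes, 4.16% were called higher and 4.44% lower. ICAM1 was 4.53-fold higher (4.25 to 4.85). IL6 was 11.7-fold higher (6.36 to 23.5), with 87 reads with TAZ4SA and 12 in the control, and reached the minimum mean through the TAZ4SA library alone. CSF2, which encodes GM-CSF, was 1.81-fold higher (1.02 to 3.23) on 28 and 25 reads. IL1B, a cytokine gene of the same inflammatory response, stood at 74.0 normalized counts with TAZ4SA and 117 in the control, 1.58-fold lower (1.14 to 2.23), so the list did not move one way. Of 11 superfamily genes with other symbols, FAS and RELT were measured; FAS, a death receptor gene, had an interval spanning 1, and RELT was 1.19-fold higher (1.07 to 1.33).

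**Figure D5:**
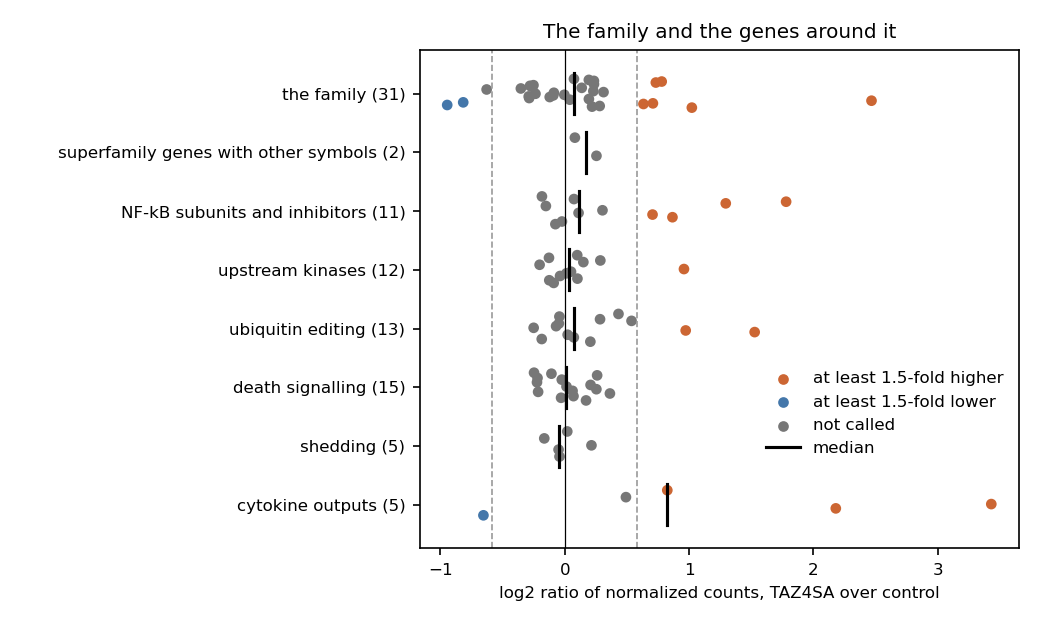
Log2 ratios of TAZ4SA over control (x axis) for the measured genes of the family and of 7 lists around it, with the number of measured genes in brackets, the median as a black bar and 1.5-fold as dashed lines. The 15 death signalling genes all lie between the dashed lines. To the right of the lines lie 4 NF-kB subunits and inhibitors, MAP3K14, BIRC3 and TNIP1, and also genes of the family and of the cytokine list. Over all measured genes, 4.16% were called higher and 4.44% lower.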

How the data were processed

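Per the submitters' processing notes, the tools were Trim Galore, STAR, HTSeq and DESeq2 with the GRCh37 build; the sources used here give no roles, versions or strand handling. The deposited table gives, for 16642 genes, a signal value per library (reads divided by the authors' size factor) and the authors' log2 fold change. All values (100%) were whole multiples of 1 step per library within 0.01 reads; the steps gave size factors of 0.689 (TAZ4SA) and 1.11 (control) and recovered the reads. Recomputed from the columns, the authors' log2 fold change differed by at most 0.000136.

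Log2 ratios were computed here from log2(normalized count + 1), which understates differences of low genes. Exact Clopper-Pearson 95% intervals (conditional binomial) came from the recovered reads, which are not independent molecules. Calls needed a mean of at least 20, a 1.5-fold ratio and an interval excluding 1. The procedure was checked on simulated counts. The count test, edgeR's quasi-likelihood test, and a DESeq2 test were not run with 1 library per group; both tools gave scaling factors only.

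Every member may be named, and up to 4 genes of each other list with the largest absolute log2 ratio. Of the genes this rule names, 2 are not reported here. The members, roles, pairs and lists were chosen with earlier results of these data known; the motifs, and the 5 sequences shown, were chosen after the members' values had been seen. Exon lengths and overlaps came from GENCODE 29 (GRCh38) by gene identifier, not from the table's build. Software comprised R 4.3.3 with DESeq2 1.42.0 and edgeR 4.0.16, and Python 3.11.15 with scipy 1.17.1, matplotlib 3.10.9, pandas 2.3.3 and numpy 2.4.6.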

Additional observations from a re-analysis of the deposited data

How the results depend on the processing

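Under TMM, total count, upper quartile and DESeq2 median of ratios scaling, and with pseudocounts of 0.5 and 5, the same 6 members were called higher and the same 2 lower. The 120 alternative log2 ratios of 20 named members stayed within their counting intervals, which are wide for LTB and TNF: with a pseudocount of 5 their log2 ratios were 1.83 and 1.52, against 3.16 and 2.47. No scaling moved the all-gene median by more than 0.00434. The counts depended on filter and threshold: with no filter 9 were higher (TNF, LTB and TNFRSF19 added), and with a mean of at least 100, 4 were higher (without TNFRSF9 and TRAF1). With a fold threshold of 2, 2 members were higher and 0 lower, and under a rule that the nearer bound of the interval pass 1.5-fold, 3 were higher (TNFRSF9, TNFSF15 and TNFAIP3) and 1 lower (TNFRSF11A), by construction of the stricter rules. The median log2 ratio of 0.07 has an order-statistic interval of -0.24 to 0.23 over genes, which are not independent. No paired analysis was possible because there is a single library on each side, and no replicate could be left out. The filter on low values left out the ligands most, 6 of 9 being below the minimum mean. Whether deeper libraries would bring them above it was not tested.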

Other observations

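Several members lie next to each other in the genome (GENCODE 29), and neighbours did not share a ratio throughout. TNF and LTB, adjacent on chromosome 6, were both higher in the TAZ4SA library on few reads. TNFRSF1A and LTBR, on chromosome 12 with 1 protein-coding gene between them, had log2 ratios of -0.26 and 0.07. SCNN1A, a sodium channel gene that shares 6.72% of the exon bases of LTBR on the opposite strand, was 2.01-fold lower (1.92 to 2.10) while LTBR was 1.05-fold higher. On chromosome 8, TNFRSF10D and TNFRSF10A are adjacent and had log2 ratios of 0.24 and 0.22, whereas TNFRSF10B, with 2 protein-coding genes between it and TNFRSF10D, had -0.09. On chromosome 1, TNFRSF1B was called lower, and the adjacent TNFRSF8 had 3 and 8 reads.

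Exons of 17 of the 40 members overlap another annotated gene. For most the shared part is small, but 55.5% of the exon bases of TNFSF13 and 29.4% of those of TNFSF12 also belong to the read-through gene TNFSF12-TNFSF13, so the low counts of both ligands are uncertain. Of TRAF7, 21.2% is shared with CASKIN1 on the opposite strand, which had 44 and 62 reads against 5073 and 8197 for TRAF7.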
